A study of Mus musculus with 10 samples.

Results

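NF-kB is the family of transcription factors that switches on genes of inflammation, survival and feedback, and 31 of its genes are described here in sorted mouse lung cells. The genes were taken by name as NF-kB subunits (5 genes), inhibitors of the IkB family (5) and genes known to be induced by NF-kB (21). The list was chosen with earlier results of these data known. Of the 31, 28 had a row in the table of 16154 genes, and 22 reached the level needed for testing (1 normalized count per M or more in 5 or more of the 10 libraries). No row carried the identifier of Il6, Il1a or Il1b, and Vcam1, Cxcl2, Cxcl3, Ccl2, Ccl20 and Tnf had a row but too few counts.

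Messenger RNA was sequenced from alveolar type II (AT2) cells, the lung epithelial cells that make surfactant, sorted from C57BL/6 mice aged 8 to 10 weeks. The 5 libraries labelled HOILKO (replicates 1 to 5) carry the genotype HOIL-1L -/-, and the 5 labelled WT (replicates 2 to 6) are wild type. For the HOILKO mice the design text names loxP-flanked HOIL-1L alleles with Cre driven from the SPC promoter, a driver active in AT2 cells, so the label and the text describe different kinds of deletion. No stimulus is named for either group, and the letter N in every title is not explained. Each title carries its own mouse number, which was read as 1 mouse per library. The numbers fall into 2 runs that the labels do not call batches: run 1 holds HOILKO 1 to 3 with WT 2 and 3, and run 2 holds HOILKO 4 and 5 with WT 4 to 6. Values are normalized counts per M, with about 7.69 to 13.2 M reads behind each library, so a value below 1 per M rests on few reads.

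NF-kB dimers are formed from p65 (Rela), RelB, c-Rel and the p50 and p52 proteins made from Nfkb1 and Nfkb2. In resting cells IkB proteins hold them in the cytoplasm. Signals from the TNF receptor, interleukin-1 receptor and Toll-like receptors lead to phosphorylation and loss of IkB, and the freed dimers bind kB sites in their target genes. HOIL-1L, encoded by Rbck1, is a subunit of LUBAC, which joins ubiquitin head to tail on signalling proteins and so helps to recruit the kinase that acts on IkB. A separate, noncanonical route runs through the kinase NIK (Map3k14) and the processing of p100 to p52. Many inhibitors, Nfkbia among them, are themselves induced by NF-kB and form its negative feedback.

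The kB sites next to the start of such genes are shown for 6 members because the inhibitors and CXC chemokines among them recur in the results. The motif searched had 3 G, a purine, any base, A or T, 2 pyrimidines and 2 C, on both strands, in the 300 bases from 250 before to 50 after each RefSeq start (GRCm38.p6). Capitals mark the matching bases, and where the motif matched on both strands the capitals cover both overlapping matches.
Nfkbia, chr12:55492648-55492696, minus strand: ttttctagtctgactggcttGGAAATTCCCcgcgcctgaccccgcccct
Nfkbie, chr17:45555574-45555623, plus strand: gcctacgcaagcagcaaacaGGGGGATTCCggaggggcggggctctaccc
Rel, chr11:23771031-23771081, minus strand: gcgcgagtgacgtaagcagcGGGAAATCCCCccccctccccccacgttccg
Cxcl1, chr5:90891154-90891204, plus strand: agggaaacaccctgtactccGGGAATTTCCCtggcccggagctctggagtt
Cxcl2, chr5:90903782-90903832, plus strand: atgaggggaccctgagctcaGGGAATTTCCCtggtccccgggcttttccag
Cxcl3, chr5:90786008-90786058, plus strand: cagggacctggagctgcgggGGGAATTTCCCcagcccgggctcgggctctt
The 3 chemokine genes, neighbours on chromosome 5, carried the same run of capitals. It lay 61 to 71 bases before the start in Cxcl1, 87 to 97 in Cxcl2 and 63 to 73 in Cxcl3. In Nfkbia the match lay 20 to 29 bases before the start, in Nfkbie 97 to 106 and in Rel 82 to 92. Of the 25 members with a RefSeq promoter, 13 held the motif (Nfkb2, Rel, Nfkbia, Nfkbie, Bcl3, Cxcl1, Cxcl2, Cxcl3, Ccl20, Il6, Sod2, Tlr2 and Irf1). By promoter this was 15 of 28, or 53.6%, against 4.51% of all 32851 promoters. Nfkb1, Relb, Nfkbiz, Vcam1, Cxcl5 and Ccl2 had no entry. A match describes these letters and does not show that a factor binds there.

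The cells carried the AT2 markers in full, with Sftpc at 110865 to 138822 per M in HOILKO and 110469 to 147854 per M in WT. The airway markers Scgb1a1, Scgb3a2, Foxj1 and Krt5 summed to 4114 to 7708 per M in HOILKO and 3817 to 8054 in WT. Whether airway cells contributed to the NF-kB levels was not tested. Of 20 leukocyte markers 12 had a row, and C1qa, S100a8, Cd79a and Nkg7 were among those with none. Their summed level was 14.5 to 43.6 per M in HOILKO and 14.8 to 44.9 per M in WT. Csf1r stood highest by mean among them, at 9.67 to 16.5 per M in HOILKO and 10.0 to 14.3 per M in WT, and Chil3 and Mrc1 reached 22.6 and 4.37 per M. Itgam, Cxcr2, Cd3e and Ms4a1 were at or near 0 in every library, and Ptprc, carried by all leukocytes, stood at 0.185 to 0.877 per M in HOILKO and 0.109 to 2.61 per M in WT. The targeted gene did not follow all labels. Rbck1 stood at 29.8 to 38.8 per M in HOILKO 2 to 5 but at 59.3 in the library labelled HOILKO 1, and at 56.1 to 57.8 per M in WT 3 to 6 but at 29.7 in the library labelled WT 2. As labelled, the groups did not differ beyond their spread (log2 difference -0.34, two-sided p = 0.206 in an exact permutation test whose smallest possible p is 0.00794). The HOILKO and WT libraries are therefore compared below with all 10 as labelled and, as a choice made after these values were seen, without the libraries labelled HOILKO 1 and WT 2. Levels, spread and correlations over all libraries do not use the labels and are given for all 10. Xist and Y-linked genes marked HOILKO 2, HOILKO 3 and WT 2 as female and the rest as male, so among the remaining 8 libraries both females were HOILKO.

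The sorted cells held a broad set of NF-kB transcripts. Per kb of exon and averaged over the 10 libraries, the adhesion molecule Icam1 stood highest at 110 normalized counts per M and per kb. It was followed by the feedback inhibitor Nfkbia at 26.9 and the subunit Rela at 24.2, whose ranges over libraries overlapped. Irf1, Birc3, Nfkbib, Sod2, Csf2, Bcl3, Nfkb2 and Nfkb1 came next, between 13.1 and 7.44 per M and per kb. Among the subunits, Relb reached 3.70 and Rel, a subunit known mainly from lymphoid and myeloid cells, 0.318 per M and per kb. The cytokine transcripts Tnf and Ccl2 lay at the bottom. Tnf was listed at 0 in 8 of 10 libraries and never passed 0.113 per M, and Ccl2, the chemokine that draws monocytes, was listed at 0 in 9 and at 0.293 per M in WT 3. Csf2, which encodes the growth factor GM-CSF that alveolar macrophages depend on, stood apart from the other cytokines at 5.15 to 10.2 per M in HOILKO and 5.65 to 8.61 per M in WT. At these depths, values near 0 show that a transcript was not detectable or nearly so, not that it was absent. In sorted pools, fewer cells of a type and less RNA per cell cannot be told apart.

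**Figure D1:**
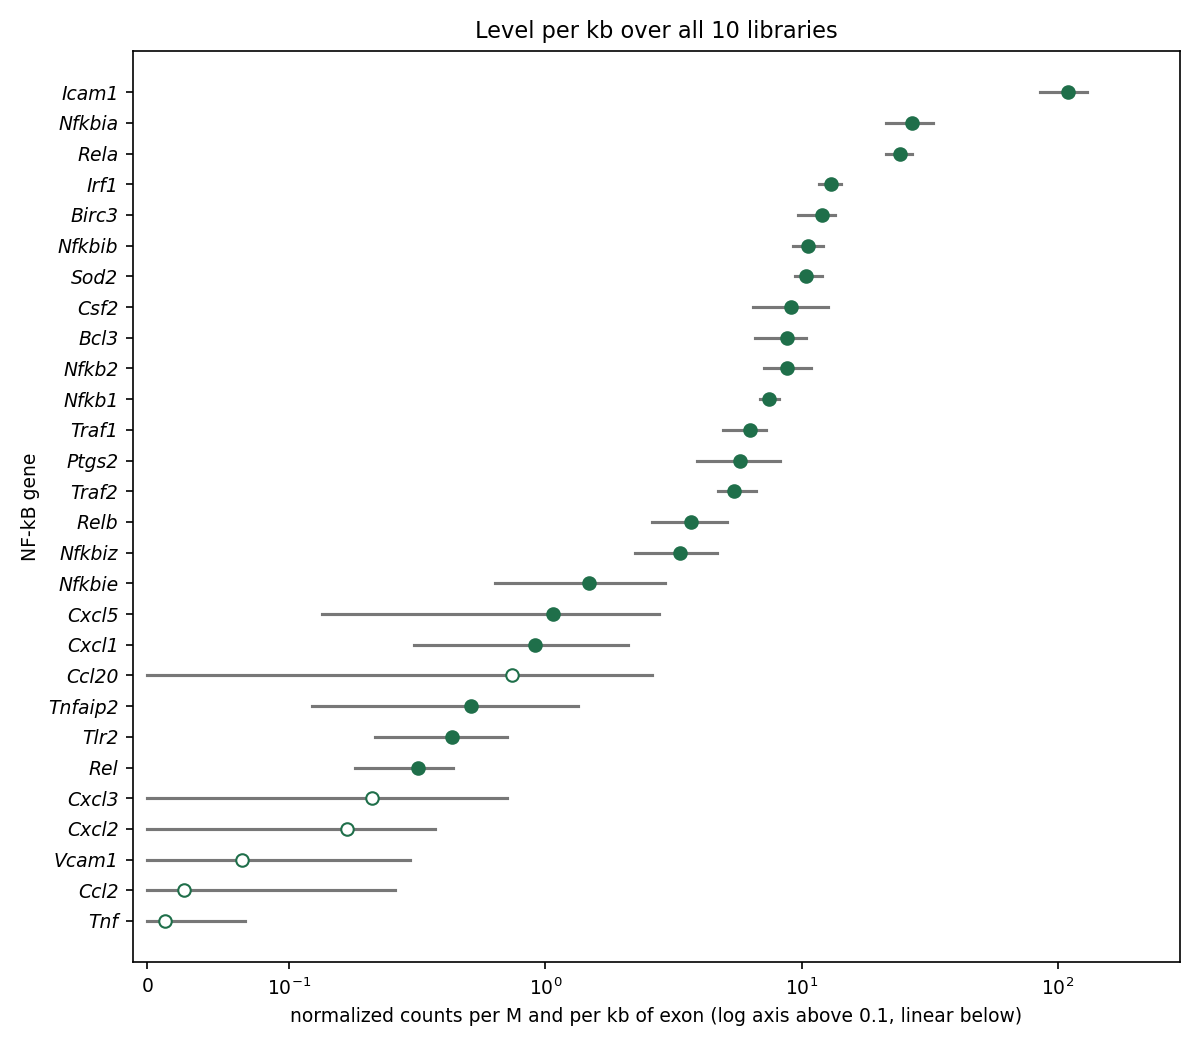
Level of each NF-kB gene with a row, in normalized counts per M and per kb of exon (log axis above 0.1, linear below). Points are means over the 10 libraries, lines run from the lowest to the highest library, and open points are genes too low to be tested; Icam1 stands highest at 110 and Tnf lowest.

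With all 10 libraries as labelled, none of the 22 tested genes passed an adjusted p of 0.05 between HOILKO and WT in limma, and neither did any of the 12946 genes tested (0% called). The fitted difference was above 0 for 14 of the 22, with a median log2 fold change of 0.08, beside 0.0053 over all tested genes. At an unadjusted p under 0.05 there was 1 of the 22, Birc3, where 9.48% of all tested genes were under it. Without the libraries labelled HOILKO 1 and WT 2, 52 genes passed (37 higher and 15 lower in HOILKO; 0.402% called), and again no NF-kB gene was among them. In these 8 libraries 16 of the 22 lay above 0, with a median of 0.15 beside 0.00065 over all tested genes. Nfkbiz, Nfkb2, Nfkbie, Birc3 and Cxcl1 had an unadjusted p under 0.05, all 5 higher in HOILKO, which is 22.7% of the 22 beside 13.1% of all tested genes. As labelled, the 2 groups did not overlap for Birc3 alone, where 1.59% of all tested genes had no overlap. In the 8 libraries Nfkb2, Nfkbie, Nfkbiz and Birc3 had all 4 HOILKO libraries above all 4 WT libraries, as 3.85% of tested genes did, and no tested member had them all below, where 6.71% of genes had no overlap in either direction.

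**Figure D2:**
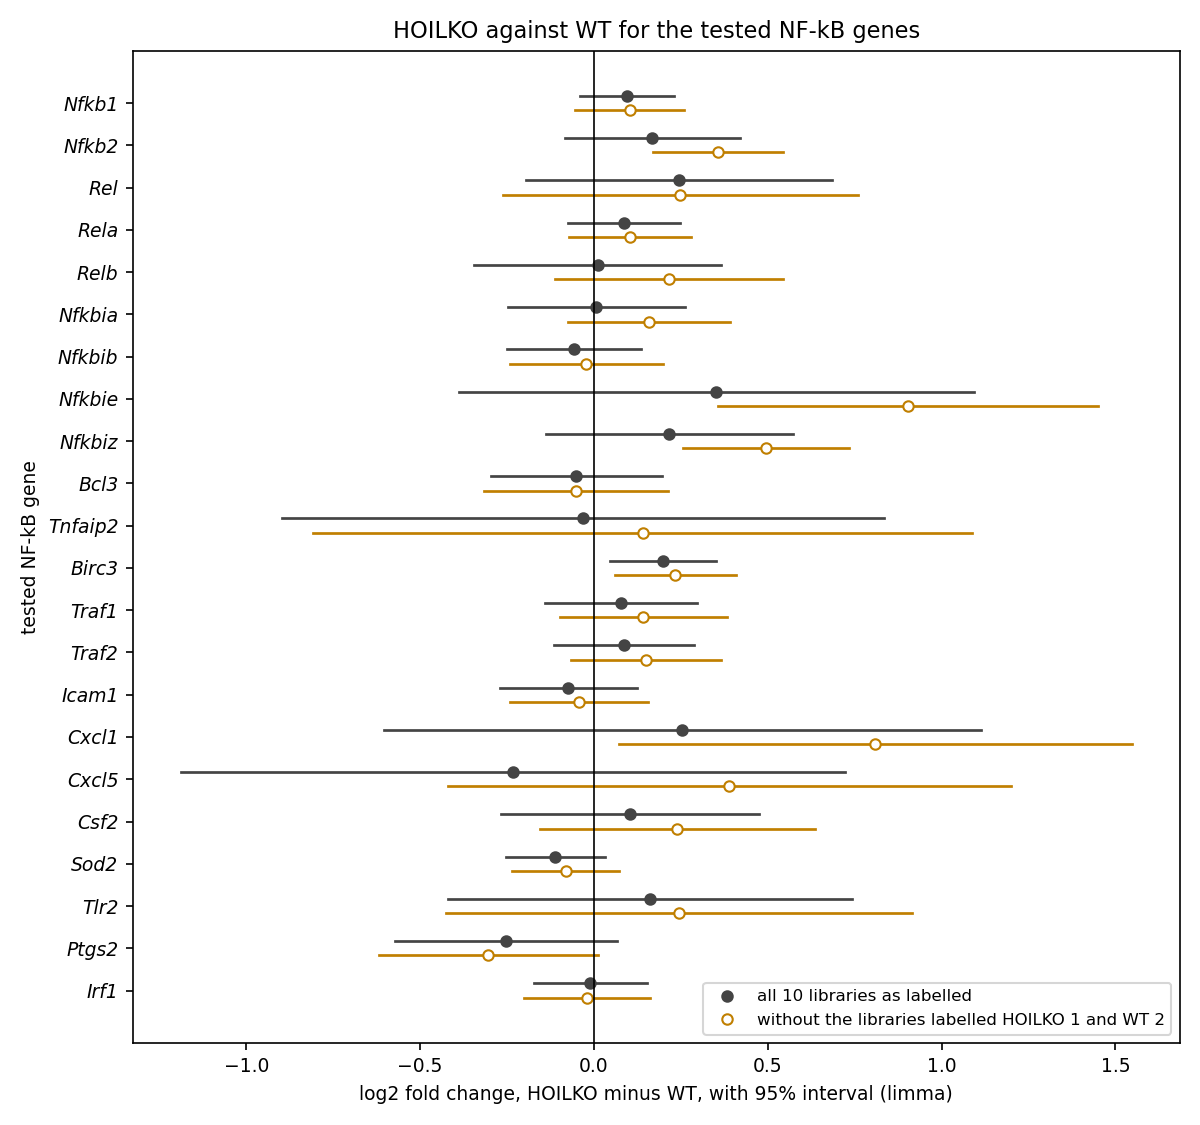
Log2 fold change (HOILKO minus WT) of the 22 tested NF-kB genes with its 95% interval from limma, in dark points for all 10 libraries as labelled and in open points without the libraries labelled HOILKO 1 and WT 2. Birc3 has an interval above 0 in both, and Nfkb2, Nfkbie, Nfkbiz and Cxcl1 in the 8 libraries; none passed after adjustment over all genes.

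All 5 subunits had a fitted difference above 0, between 0.011 (Relb) and 0.25 (Rel) with all 10 libraries. Nfkb1, the p50 precursor, stood at 88.4, 86.9, 96.5, 98.7 and 93.2 per M in HOILKO 1 to 5, against 84.5, 86.1, 83.4, 86.6 and 93.2 per M in WT 2 to 6. The groups overlapped in WT 6, and the log2 fold change was 0.10 ± 0.06 (SE; limma adjusted p = 0.651), and 0.10 ± 0.07 in the 8 libraries. Rela, which encodes the main activating subunit, averaged 76.6 ± 5.61 per M in HOILKO and 72.1 ± 5.98 per M in WT (SD, n = 5 each), a difference smaller than the SD of either group, and its log2 fold change in the 8 libraries was 0.10 ± 0.08. Rel averaged 2.59 ± 0.421 per M in HOILKO and 2.15 ± 0.639 per M in WT (SD, n = 5 each), with overlapping groups and a log2 fold change of 0.25 ± 0.24 in the 8 libraries.

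The noncanonical subunits are Nfkb2 and Relb. Nfkb2 (ENSMUSG00000025225, mm10 chr19:46304320-46312385, plus strand), the p52 precursor and itself an NF-kB target, stood at 32.8, 49.7, 42.8, 41.6 and 45.3 per M in HOILKO 1 to 5, against 49.4, 34.5, 34.7, 32.7 and 37.5 per M in WT 2 to 6. The library labelled HOILKO 1 lay at the level of WT 3 to 6, and that labelled WT 2 beside the highest HOILKO library. As labelled the log2 fold change was 0.17 ± 0.12 (SE; limma adjusted p = 0.666). Without both libraries the means were 44.9 ± 3.60 per M in HOILKO and 34.9 ± 1.96 per M in WT (SD, n = 4 each), with a log2 fold change of 0.36 ± 0.09 (limma adjusted p = 0.0973). Relb, the usual partner of p52, had 11.1, 18.2, 14.3, 16.2 and 11.9 per M in HOILKO 1 to 5, against 19.8, 10.1, 14.6, 11.6 and 15.8 per M in WT 2 to 6. The Relb groups overlapped with and without the 2 libraries, at log2 fold changes of 0.011 ± 0.17 and, in the 8 libraries, 0.22 ± 0.16 (limma adjusted p = 0.986 and 0.564).

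Among the inhibitors, the induced ones varied most. Nfkbia encodes IkB-alpha, the fast feedback inhibitor, and had 34.3, 49.8, 44.7, 51.5 and 37.3 per M in HOILKO 1 to 5, against 52.4, 34.3, 42.5, 43.6 and 43.1 per M in WT 2 to 6. Its means hardly differed as labelled (43.5 ± 7.56 per M in HOILKO and 43.2 ± 6.41 per M in WT; SD, n = 5 each), and the 95% interval of the log2 fold change ran from -0.25 to 0.26. In the 8 libraries the log2 fold change of Nfkbia was 0.16 ± 0.11 (limma adjusted p = 0.548), and the groups still overlapped. Nfkbib, encoding IkB-beta, differed by -0.058 ± 0.09 on the log2 scale with all libraries and by -0.02 ± 0.10 in the 8.

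Nfkbie (ENSMUSG00000023947, mm10 chr17:45555703-45563169, plus strand) encodes IkB-epsilon, another inhibitor induced by NF-kB. It had 1.93, 8.90, 4.05, 3.50 and 7.21 per M in HOILKO 1 to 5, against 8.27, 3.09, 3.31, 2.76 and 1.93 per M in WT 2 to 6. The values of HOILKO 2 and 5 and of the library labelled WT 2 stood apart from all others. The log2 fold change was 0.35 ± 0.35 as labelled and 0.90 ± 0.26 in the 8 libraries (limma adjusted p = 0.777 and 0.163), with means of 5.92 ± 2.58 per M in HOILKO and 2.77 ± 0.606 per M in WT in the 8 (SD, n = 4 each). The closest HOILKO and WT libraries of these 8 were only 3.50 and 3.31 per M.

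Nfkbiz (ENSMUSG00000035356, mm10 chr16:55811375-55838899, minus strand) encodes the nuclear protein IkB-zeta, which acts with p50 on a subset of target genes. Its values were 11.2, 17.2, 19.4, 23.4 and 20.3 per M in HOILKO 1 to 5, against 21.2, 13.7, 14.2, 13.8 and 14.4 per M in WT 2 to 6. HOILKO 2 to 5 all lay above the narrow band of WT 3 to 6, while the libraries labelled HOILKO 1 and WT 2 lay on the opposite sides. As labelled the log2 fold change was 0.22 ± 0.17 (limma adjusted p = 0.696). In the 8 libraries it was 0.49 ± 0.11, with a 95% interval of 0.26 to 0.73 and a limma adjusted p of 0.0682. With the run as a covariate in the 8 libraries Nfkbiz passed (0.53 ± 0.11, limma adjusted p = 0.0394), as 1 of 70 genes passing among the 12946 tested. With sex as a covariate in the 8 libraries Nfkbiz did not pass (0.62 ± 0.13, limma adjusted p = 0.0784). Leaving out each of the 8 in turn kept its difference between 0.42 and 0.56, at limma adjusted p values of 0.0549 to 0.214. Bcl3, the other nuclear member, averaged 21.2 ± 1.92 per M in HOILKO and 22.2 ± 3.71 per M in WT (SD, n = 5 each), with overlapping groups and a log2 fold change of -0.05 ± 0.13 in the 8 libraries.

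**Figure D3:**
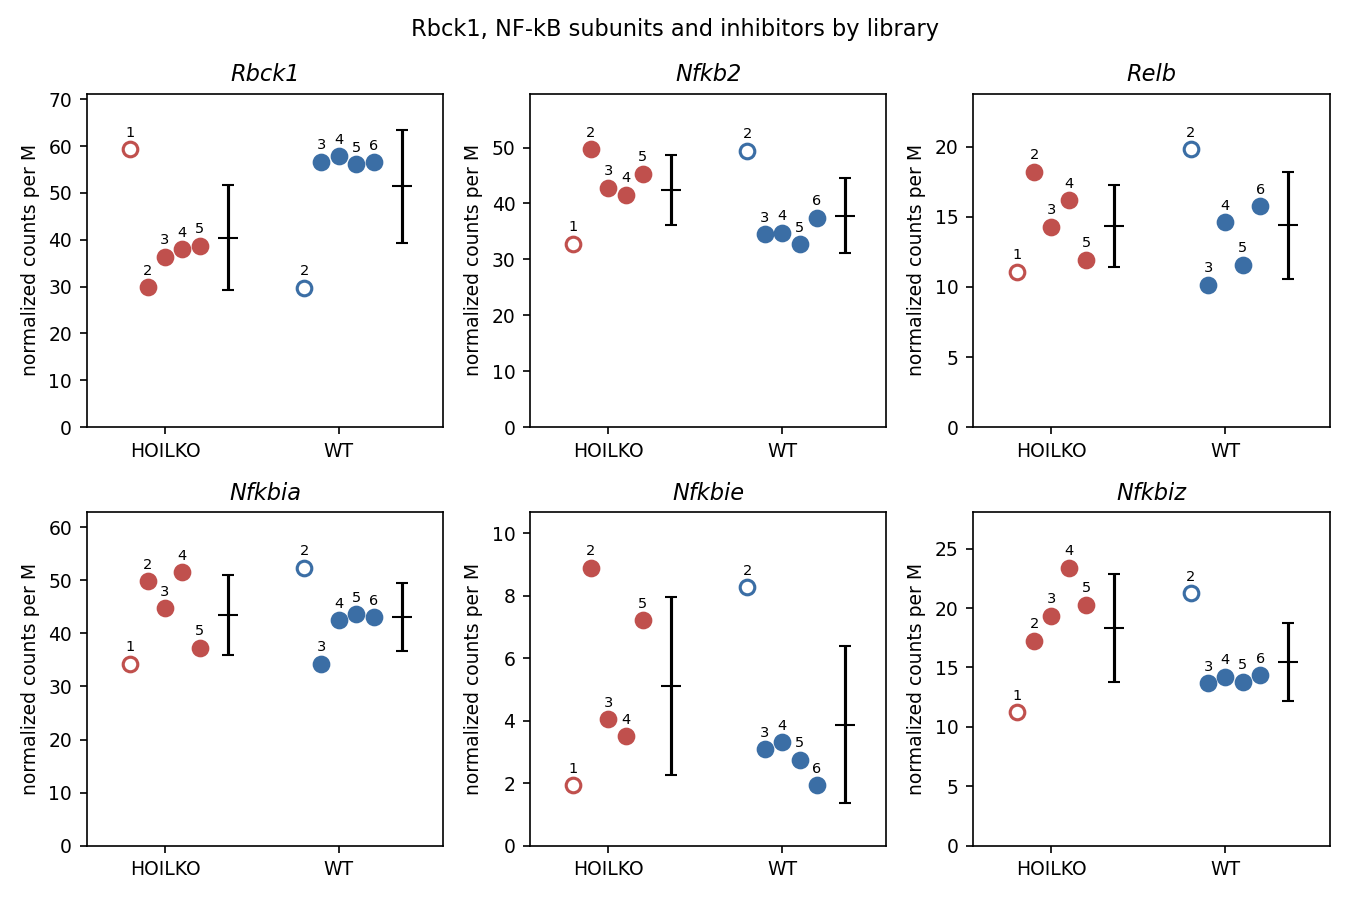
Normalized counts per M of Rbck1 and of 5 NF-kB subunit and inhibitor genes in each library, HOILKO left of WT, with replicate numbers above the points and the mean ± SD of all 5 libraries beside them. Open points are the libraries labelled HOILKO 1 and WT 2; for Rbck1, Nfkb2, Nfkbie and Nfkbiz each of them lies with or near the other group.

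Birc3 was the one induced gene whose groups did not overlap as labelled. Birc3 (ENSMUSG00000032000, mm10 chr9:7848699-7873186, minus strand) encodes cIAP2, a ubiquitin ligase of TNF receptor signalling that blocks cell death. It had 62.3, 67.8, 60.6, 65.9 and 63.9 per M in HOILKO 1 to 5, against 59.7, 55.0, 48.7, 56.9 and 58.9 per M in WT 2 to 6. The gap between the groups was small, from 60.6 per M in HOILKO 3 to 59.7 per M in the library labelled WT 2. The log2 fold change was 0.20 ± 0.07 with a 95% interval of 0.048 to 0.35 (limma adjusted p = 0.398), and 0.23 ± 0.08 in the 8 libraries (limma adjusted p = 0.241). The adaptors Traf1 and Traf2, which bind TNF receptors together with the cIAP proteins, differed by 0.08 ± 0.10 and 0.09 ± 0.10 as labelled and by 0.14 ± 0.11 and 0.15 ± 0.10 in the 8 libraries, with overlapping groups as labelled.

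Of the chemokines, Cxcl1 (ENSMUSG00000029380, mm10 chr5:90891241-90893115, plus strand), a neutrophil attractant, was near the limit of testing. It had 0.635, 2.38, 0.574, 3.39 and 2.47 per M in HOILKO 1 to 5, against 3.93, 0.719, 0.844, 0.913 and 1.14 per M in WT 2 to 6. HOILKO 2, 4 and 5 and the library labelled WT 2 were high, whereas HOILKO 3 lay below every WT library. The log2 fold change was 0.25 ± 0.41 as labelled and 0.81 ± 0.35 in the 8 libraries (limma adjusted p = 0.863 and 0.332). Cxcl5, another neutrophil attractant and one known from AT2 cells, ranged from 0.249 to 5.19 per M in HOILKO and from 0.616 to 4.45 per M in WT, and its log2 fold change was -0.23 ± 0.45 as labelled and 0.39 ± 0.38 in the 8 libraries. Cxcl2 and Cxcl3 stayed at most at 0.767 and 2.47 per M in any library. Ccl20, which attracts cells bearing CCR6, had 0, 3.71, 2.90, 0.414 and 1.40 per M in HOILKO 1 to 5, against 0.595, 0.529, 0.113, 0 and 0.898 per M in WT 2 to 6. Ccl20 was too low to be tested, and its groups overlapped.

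Icam1, the ligand of leukocyte integrins, was abundant and did not follow the labels. It had 497, 531, 483, 373 and 447 per M in HOILKO 1 to 5, against 569, 496, 469, 481 and 430.2 per M in WT 2 to 6. The log2 fold change was -0.07 ± 0.09 as labelled and -0.04 ± 0.09 in the 8 libraries (limma adjusted p = 0.827 and 0.882). The related Vcam1 reached 0.941 per M at most in HOILKO. In WT it stood at 2.62 and 2.01 per M in WT 2 and 3, both of run 1. Vcam1 was listed at 0 in 4 libraries, HOILKO 1 and WT 4 to 6.

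The remaining induced genes did not stand out either. Sod2, the mitochondrial superoxide dismutase, averaged 100.1 ± 3.69 per M in HOILKO and 108 ± 8.78 per M in WT (SD, n = 5 each), a log2 fold change of -0.11 ± 0.07 (limma adjusted p = 0.620), or -0.08 ± 0.07 in the 8 libraries. Ptgs2, the inducible cyclooxygenase, had 20.5, 28.0, 22.9, 17.9 and 31.1 per M in HOILKO 1 to 5, against 21.2, 28.2, 27.8, 28.4 and 37.8 per M in WT 2 to 6. Its groups overlapped, and its log2 fold change of -0.25 ± 0.15 as labelled and -0.30 ± 0.15 in the 8 libraries was the lowest among the 22 (limma adjusted p = 0.612 and 0.395). Irf1, the interferon regulatory factor, was among the steadiest genes at 46.5 to 56.6 per M in HOILKO and 48.1 to 56.1 per M in WT, with a log2 fold change of -0.01 ± 0.08 as labelled and -0.02 ± 0.09 in the 8 libraries. Csf2 differed by 0.10 ± 0.18, Tlr2, a receptor for bacterial lipopeptides, by 0.16 ± 0.27, and Tnfaip2 by -0.03 ± 0.41 (log2, all 10 libraries), each less than its SE. In the 8 libraries the same 3 genes differed by 0.24 ± 0.19, 0.25 ± 0.32 and 0.14 ± 0.45. The exons of Nfkb2, Nfkbib, Icam1 and Csf2 share 11.6%, 14.5%, 11.7% and 12% of their length with 1 gene on the opposite strand. Nfkb2 also shares 6.52% with another such gene, and Bcl3 and Tnfaip2 share 6.51% and 6.30%. Smaller overlaps exist for other members, and nothing read here states whether the counting used strand.

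The 2 libraries that went against their labels at Rbck1 were also set against both groups at the NF-kB genes. The library labelled WT 2 was closer to the mean of HOILKO 2 to 5 than to that of WT 3 to 6 for 16 of the 22 tested genes (72.7%), beside 46.9% of all tested genes. The library labelled HOILKO 1 was closer to the mean of WT 3 to 6 for 14 of 22 (63.6%), near the 56.4% of all tested genes. Both held for 9 of 22 (40.9%), beside 23.9% of all genes: Nfkb2, Relb, Nfkbia, Nfkbie, Nfkbiz, Traf1, Cxcl1, Cxcl5 and Csf2. The library labelled WT 2 was female, as were HOILKO 2 and 3 but not HOILKO 4 and 5. That labelled HOILKO 1 was male, as were WT 3 to 6, so label and sex cannot be told apart in these shares. The shares are a description, with no test.

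**Figure D4:**
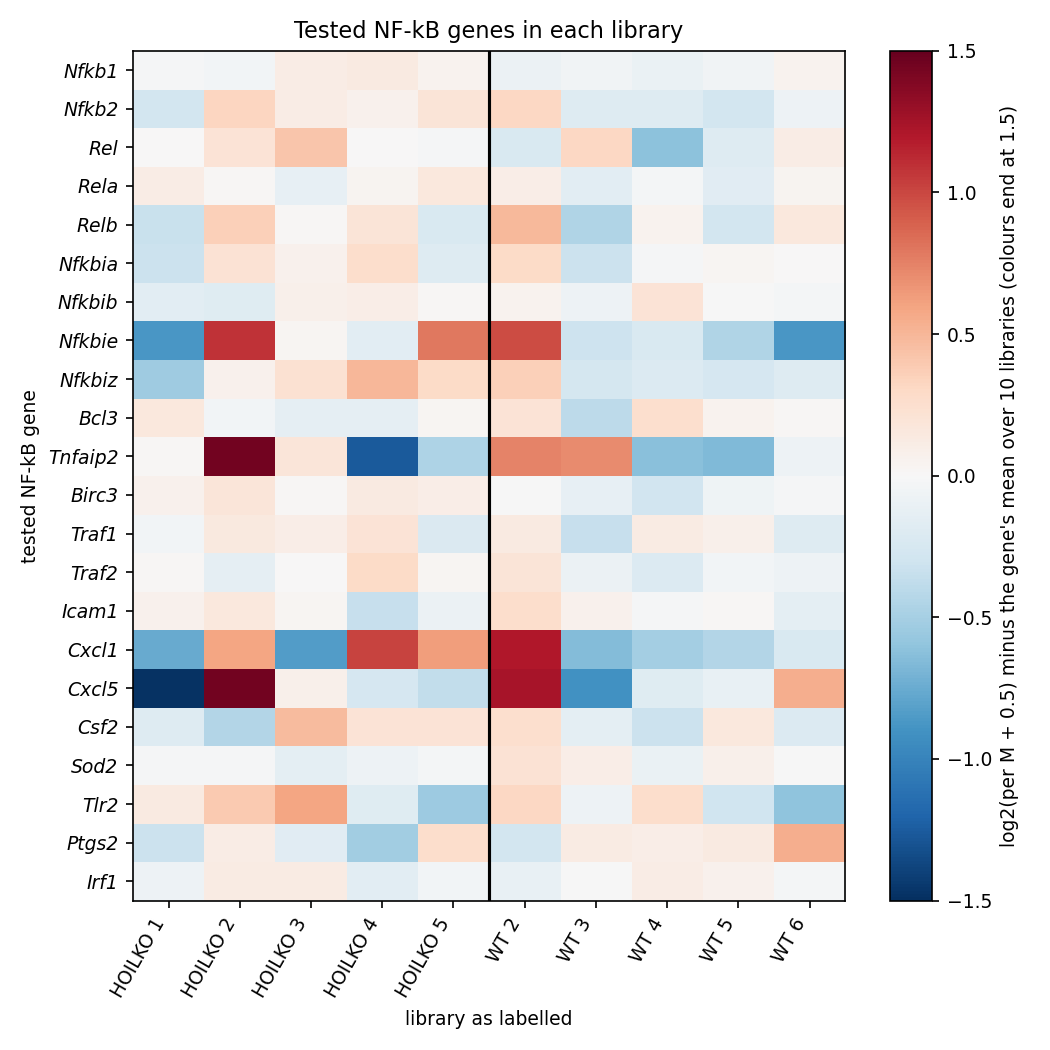
Deviation of each tested NF-kB gene in each library from its mean over the 10 libraries, on the log2(per M + 0.5) scale, with HOILKO libraries left of the black line and WT libraries right of it. Nfkbie, Nfkbiz, Cxcl1 and Cxcl5 are low in the library labelled HOILKO 1 and high in that labelled WT 2, and Tnfaip2 is lowest in HOILKO 4.

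How steady a gene was differed widely within the family. Over the 10 libraries the coefficient of variation was 5.90% for Nfkb1, 7.08% for Irf1, 7.40% for Sod2 and 8.00% for Rela. It was 58.3% for Nfkbie, 71.3% for Tnfaip2, 73.2% for Cxcl1 and 81.3% for Cxcl5. Rel and Tlr2, which were also low in level, lay at 23.6% and 37.6%. Nfkb2, Relb, Nfkbia and Nfkbiz lay between, at 16.4%, 22.3%, 15.2% and 23.7%.

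Part of the spread ran between the runs. With the genotype label in the fit, 81 genes passed between run 2 and run 1 (41 higher and 40 lower in run 2; 0.626% called), and Tnfaip2 was the NF-kB gene among them. Tnfaip2, a gene first known as induced by TNF in endothelial cells, had 0.608 to 2.02 per M in run 2 and 2.18 to 6.70 per M in run 1, with no overlap. It fell by 1.29 ± 0.28 on the log2 scale in run 2 (limma adjusted p = 0.0401). This call was fragile: over 16 other settings its log2 difference lay between -1.55 and -0.82, at limma adjusted p values of 0.0220 to 0.135, and it passed in 6. Without the libraries labelled HOILKO 1 and WT 2, 28 genes passed between the runs and Tnfaip2 was not among them (-1.45, limma adjusted p = 0.0851). Icam1 differed by -0.25 ± 0.07 in run 2 against run 1 (limma adjusted p = 0.0998). The summed leukocyte markers moved the same way, at 14.5 to 19.3 per M in run 2 and 29.0 to 44.9 per M in run 1. The macrophage markers Chil3, Mrc1 and Itgax fell in run 2, by log2 differences of -2.93, -2.04 and -2.14. Their limma adjusted p values were 2.37e-06, 0.00562 and 0.000891. Csf1r, the other of the 4 tested leukocyte markers, had a fitted difference above 0 and did not pass. The part of these markers in the Tnfaip2 difference was not tested, and since the sums form separate clusters of 5 libraries no correlation is given.

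The genotype difference within each run was also taken alone. In run 2, which holds neither doubted library, Rbck1 passed at -0.56 ± 0.11 (limma adjusted p = 0.0434). There Nfkbiz differed by 0.61 ± 0.15, Cxcl1 by 1.22 ± 0.34, Nfkbie by 0.84 ± 0.31 and Nfkb2 by 0.31 ± 0.12, with limma adjusted p values of 0.135, 0.245, 0.397 and 0.432. In run 1, as labelled, the same 4 genes differed by -0.13 ± 0.24, -0.61 ± 0.57, -0.25 ± 0.50 and -0.0055 ± 0.18. The difference between the runs was tested as an interaction over all 10 libraries as labelled. The interaction was passed by 2 genes (0.0154% called), neither of them an NF-kB gene. It was 1.83 ± 0.71 for Cxcl1 and 0.74 ± 0.29 for Nfkbiz (limma adjusted p = 0.784 and 0.807). Both doubted libraries are in run 1, so run and doubted label cannot be told apart in it.

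Immediate early genes, which respond within minutes to cell handling, also varied between libraries. Their 13 genes, led by Jun, Zfp36 and Btg2, summed to 567 to 893 per M in HOILKO and 489 to 849 per M in WT. In the 8 libraries the sums were 665 to 893 per M in HOILKO and 489 to 849 per M in WT. None of the 13 passed between the groups in either comparison, with 10 above 0 as labelled and 9 in the 8 libraries. At an unadjusted p under 0.05 in the 8 libraries were 6 of the 13, or 46.2%, a larger share than the 22.7% of the NF-kB genes and the 13.1% of all tested genes; Fos, Fosb, Jun and Junb were higher in HOILKO, and Atf3 and Nr4a1 lower. Between the runs Fos, Fosb and Dusp1 passed, all 3 higher in run 2. The lowest limma adjusted p in the 8 was 0.0515, for Junb at 0.56 ± 0.12. The sum was set against each of the 22 tested NF-kB genes over the 10 libraries, and none of these 22 correlations passed adjustment. Nfkb1 came closest at r = 0.82 (permutation p = 0.00525, adjusted 0.115) and rho = 0.81 (permutation p = 0.00689, adjusted 0.141), with r = 0.81 without HOILKO 4 and WT 3. Icam1 ran the other way at r = -0.70 (permutation p = 0.0190, adjusted 0.209) and rho = -0.77 (permutation p = 0.0128, adjusted 0.141), with r = -0.70 without HOILKO 4 and WT 3. These correlations span both runs, and each run holds 5 libraries, too few for a value within runs. For Nfkbiz r was 0.47 with all libraries (permutation p = 0.173, adjusted 0.682) and rho 0.50 (permutation p = 0.144, adjusted 0.634), and r was 0.19 without HOILKO 4 and WT 3. Whether cell handling plays a part in the Nfkbiz values was not tested.

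Beyond the 31 genes, 40 further genes of the pathway were read, from receptors to kinases and deubiquitinases, and 38 of them were tested. None passed between HOILKO and WT, with 19 above and 19 below 0 and a median of -0.0098 as labelled. The smallest p values belonged to Tnfaip3, Tnfrsf1b, Traf6 and Otulin. Tnfaip3 encodes A20, a ubiquitin-editing feedback inhibitor, and averaged 15.5 per M in HOILKO and 12.3 per M in WT (log2 fold change 0.30 ± 0.15, limma adjusted p = 0.572). Otulin encodes the enzyme that cleaves linear ubiquitin chains and averaged 16.9 per M in HOILKO and 19.2 per M in WT (-0.17 ± 0.10, limma adjusted p = 0.607). The TNF receptor gene Tnfrsf1b differed by 0.25 ± 0.14 and the adaptor gene Traf6 by 0.16 ± 0.09. In the 8 libraries none of the 38 passed, 17 lay above 0 and the median was -0.039. At an unadjusted p under 0.05 in the 8 libraries were 5 of the 38, or 13.2%, near the 13.1% of all tested genes. The smallest p there was that of Map3k14, the kinase NIK of the noncanonical route, named for this after its values were seen. Map3k14 had 6.05, 12.0, 11.4, 12.1 and 12.6 per M in HOILKO 1 to 5, against 10.0, 8.65, 10.1, 5.91 and 7.71 per M in WT 2 to 6. The library labelled HOILKO 1 lay among the WT values, while that labelled WT 2 lay below HOILKO 2 to 5. The log2 fold change in the 8 libraries was 0.57 ± 0.15 (limma adjusted p = 0.125). None of the 38 passed between the runs.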

How the data were processed

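RNA from sorted AT2 cells was extracted with an RNeasy kit, made into NEBNext Ultra libraries and sequenced on a NextSeq 500, per the labels' protocols. The authors deposited 1 table whose values, by the table's own name, are normalized counts, a signal that is never negative. Tools listed in the submitters' processing notes are bcl2fastq 2.17 and edgeR 3.14.0, with the build mm10. The aligner, like the scaling method and any use of strand, was not given in the sources used here. Column totals were 6.94 to 7.43 M, whole reads could not be recovered, and no count test was run. Depth was estimated from the lowest values of each column.

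The mean column total (7.14 M) served as a common divisor. Genes with at least 1 per M in 5 libraries (12946) were tested with limma-trend (limma 3.58.1, R 4.3.3) on log2(value per M + 0.5), two-sided, with Benjamini-Hochberg adjustment over all of them and a cut-off of 0.05. Fold changes use that scale, which understates those of low genes. Errors of fold changes are SE and intervals are 95%. Symbols (16026 of 16154 IDs) and exon lengths come from gene name tables and GENCODE M21. Promoters come from RefSeq. Correlations used 100000 permutations. The linear model was tested on simulated data. All 31 members are named whatever their values, and the members and lists were chosen with earlier results of these data known. Same-numbered replicates did not pair as a set (correlations of their deviations 0.03 to 0.31), though HOILKO 2 and WT 2 matched each other best. Figures were drawn with matplotlib 3.10.9 in Python 3.11.15 (pandas 2.3.3, numpy 2.4.6).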

Additional observations from a re-analysis of the deposited data

Results flagged for a closer look

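A single library stood far from the other 4 of its group, by Dixon's criterion, in 9 gene and group combinations. In 3 of these the other 4 libraries were listed at 0, so that any single value above 0 meets the criterion and no chance rate applies: Ccl2 at 0.293 per M in WT 3, Tnf at 0.0871 per M in HOILKO 3 and Tnf at 0.113 per M in the library labelled WT 2. The other 6 stood among 52 combinations with at least 2 values above 0, where chance at about 1 in 20 gives 2.6. Of these, 5 belonged to the library labelled WT 2, which was high each time: Nfkb2 at 49.4 per M (next 37.5), Nfkbie at 8.27 (next 3.31), Nfkbiz at 21.2 (next 14.4), Cxcl1 at 3.93 (next 1.14) and Cxcl3 at 2.47 (next 1.06). This is the WT library whose Rbck1 level lay with HOILKO 2 to 5, and it was the only female among those labelled WT; label and sex cannot be told apart in it. The sixth was Vcam1 at 0.941 per M in HOILKO 2, a low value that rests on few reads.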

How the results depend on the processing

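Over 23 other settings no tested member passed between HOILKO and WT, and 461 of 500 fold changes of members kept their sign; 7 of the 22 members never changed it. The genes passing between HOILKO and WT, 0 as labelled, came to 261 with the replicate number as a block (which drops HOILKO 1 and WT 6; members 0), 41 in run 2 alone, 1 with the run as a covariate, 52 without the libraries labelled HOILKO 1 and WT 2, and 0 to 4 leaving out single libraries (4 without HOILKO 1). In those 8 libraries the 52 became 70 with the run as a covariate and 27 with sex as a covariate. Leaving out single libraries of the 8 gave 19 to 100 (19 without WT 5, 26 without WT 4, 32 without HOILKO 3, 84 without HOILKO 4 and 100 without WT 6). Members passing in the 8 libraries went to 1, Nfkbiz, with the run as a covariate. Between the runs, 81 genes became 51 with a filter of 5 per M and 28 without the 2 libraries. Leaving out single libraries gave 18 (without WT 2) to 139 (without HOILKO 1). The 1 member, Tnfaip2, lay under the filter of 5 and was not tested there. Members passing became 0 with no filter and without the 2 libraries, and 0 to 1 leaving out single ones.

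Signs that changed, on the log2 scale and none of them passing, were in run 1 alone Nfkb2 (-0.0055), Nfkbie (-0.25), Nfkbiz (-0.13), Bcl3 (0.087), Traf2 (-0.087), Cxcl1 (-0.61), Csf2 (-0.10) and Irf1 (0.11). In run 2 alone they were Traf1 (-0.0059) and Tlr2 (-0.15), with sex as a covariate Relb (-0.075) and Nfkbia (-0.049), with a pseudocount of 2 Tnfaip2 (0.0097), and with the block Cxcl5 (0.22). Without the 2 libraries they were Tnfaip2 (0.14) and Cxcl5 (0.39), and Irf1 became 0.0012 with array weights and 0.015 with equal totals. Leaving out single libraries gave Relb -0.10 to 0.13, Nfkbia -0.072 to 0.087, Bcl3 -0.16 to 0.0046, Tnfaip2 -0.40 to 0.28, Icam1 -0.12 to 0.0044, Cxcl5 -0.62 to 0.11, Csf2 -0.0042 to 0.23 and Irf1 -0.043 to 0.027. The causes were not tested. Depth limits Cxcl1, Cxcl5, Rel, Tlr2 and Tnfaip2, which rest on few reads per library.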

Other observations

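Among the genes of other cell types, the mesothelial marker Msln was named after its values were seen. It had 2.18, 20, 11.6, 9.33 and 9.43 per M in HOILKO 1 to 5, against 2.13, 2.75, 3.42, 2.49 and 8.68 per M in WT 2 to 6. Without the libraries labelled HOILKO 1 and WT 2 its log2 fold change was 1.53 ± 0.30 (limma adjusted p = 0.0327), the one gene of the fibroblast and mesothelium list that passed. The other 3 tested genes of the list, the fibroblast collagens Col1a1, Col1a2 and Col3a1, had differences in the opposite direction that did not pass (-1.03 ± 0.35, -0.75 ± 0.36 and -1.01 ± 0.32; limma adjusted p = 0.226, 0.390 and 0.200). The 7 genes of that list summed to 9.76 to 22.9 per M in HOILKO and 6.41 to 17.2 per M in WT. Whether this bears on any NF-kB gene was not tested.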
